A study of Mus musculus with 5 samples.

Results

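The genes described here encode the contractile apparatus that defines smooth muscle cells and myofibroblasts: the actins Acta2 and Actg2, the myosin light chain Myl9 and its kinase Mylk, and the filament proteins Tagln, Cnn1, Cnn2, Tpm1, Tpm2 and Cald1. They were chosen by gene symbol, and all 10 were present among the 12621 genes of the deposited expression table. RNA was sequenced from mouse mesenchymal stem cells, a culture of stromal precursors of bone, cartilage and fat. They were TSG-6 knockout (KO, 3 libraries) or wild type (WT, 2 libraries), although the design text speaks of 2 replicates for each cell type, where TSG-6 is a secreted, hyaluronan-binding protein encoded by Tnfaip6. Every sample carries the strain label Balb/c (C.129S6), and the labels give neither the tissue of origin nor the age, the passage, the deleted part of the gene or the number of animals, so the p-values rest on a spread among libraries that may be technical.

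In smooth muscle, calcium-bound calmodulin activates myosin light chain kinase, which phosphorylates the regulatory light chain and lets myosin pull on actin filaments. Tropomyosin, caldesmon and calponin lie along those filaments and modulate the pull. Most of these genes are textbook targets of serum response factor, which binds CArG boxes together with myocardin or its relatives, and Acta2 and Tagln are standard markers of the smooth muscle and myofibroblast state that stromal cells can enter after TGF-beta.

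Promoters were compared first, because a shared serum response factor site is the best known sequence feature of this gene group. RefSeq start sites (GRCm38.p6) were given for 8 of the genes in 9 promoters, and the 250 bases before each start were searched on both strands. None was given for Actg2 or Tagln, so their promoters were not searched. A strict CArG box stood in 2 of the 9 promoters, against 1.47% of all 32851 promoters searched the same way. Allowing 1 other base in its A/T core, 3 of 9 held a match, against 8.59% of all promoters. In Acta2 both matches had 1 other base, CCCTATATGG from 84 to 75 bases and CCTTGTTTGG from 34 to 25 bases before the RefSeq start, on chromosome 19, and GENCODE starts this gene further upstream, so these positions depend on the annotation. The shorter sequence CATTCC, a core recognised by TEAD factors, or its complement stood in 4 of 9 promoters, against 12.6% of all. The stretches of Myl9 and Cnn2 are shown because they hold the strict boxes, and that of Cnn1 because it holds none, in a gene whose log2 fold change was above 5 like that of Myl9. Capitals mark CArG matches with at most 1 other base in the core, and each stretch ends where the GENCODE gene model begins.
Myl9 (chr2:156775214-156775419, plus strand): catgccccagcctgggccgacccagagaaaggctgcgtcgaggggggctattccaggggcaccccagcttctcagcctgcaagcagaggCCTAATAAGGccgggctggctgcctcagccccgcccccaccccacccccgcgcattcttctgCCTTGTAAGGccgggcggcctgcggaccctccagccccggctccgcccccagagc
Cnn2 (chr10:79988350-79988583, plus strand): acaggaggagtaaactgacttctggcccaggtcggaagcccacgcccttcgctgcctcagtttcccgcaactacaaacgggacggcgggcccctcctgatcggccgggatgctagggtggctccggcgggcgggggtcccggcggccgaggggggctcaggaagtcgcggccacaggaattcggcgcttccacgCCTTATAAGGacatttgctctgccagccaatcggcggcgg
Cnn1 (chr9:22099003-22099215, plus strand): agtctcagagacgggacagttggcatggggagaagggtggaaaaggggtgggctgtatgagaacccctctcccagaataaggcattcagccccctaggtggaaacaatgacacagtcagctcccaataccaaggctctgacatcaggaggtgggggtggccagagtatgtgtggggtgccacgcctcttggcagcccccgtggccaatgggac
In Myl9 the strict box lay from 161 to 152 bases and the match with 1 other base from 99 to 90 bases before the RefSeq start. In Cnn2 the strict box lay from 56 to 47 bases before it. A match is a description of letters only, and binding was not measured here.

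Between 13605555 and 26658725 reads were assigned to listed genes per library. Each value below is a normalised count, scaled like CPM, and 1 read was worth 0.0378 to 0.0717. The KO libraries carry the suffixes C1, C2 and SE and the WT libraries C1 and SE, whose meaning the labels do not give. The SE library stood apart in the KO, with Pearson r across genes of 0.948 to both C libraries against 0.982 between those C libraries, and r between the WT libraries was 0.969. Libraries of one group were not repeats of a single library: their chi-square divided by its degrees of freedom lay between 62.3 and 220.0. The targeted gene Tnfaip6 had normalised counts of 1.65, 2.38 and 1.36 in KO C1, C2 and SE, against 6.04 and 3.21 in WT C1 and SE, a log2 fold change of -1.13 (SE 0.37; limma, adjusted p = 0.0578). Groups did not overlap for Tnfaip6, but the difference missed the threshold of 0.05. With the column suffix as an added term it passed, at -1.22 (SE 0.29; limma, adjusted p = 0.00943), and reads over the whole gene do not show whether the deleted part was transcribed. The stromal label was checked on 12 marker genes. Of the 11 in the table, Vim, Itgb1, Prrx1 and Twist1, named after their values were seen, were read in every library and not called, whereas Nt5e, Cd44 and Ly6a fell. Of the 11, 0 rose and 3 fell, beside 17.2% higher and 17.1% lower over all genes tested. With the column suffix as an added term 3 rose and 4 fell, beside 28.3% higher and 32.3% lower.

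Most of the contractile genes were higher in KO cells, and several had few reads in WT cells. Of the 10 genes, 9 rose (limma, adjusted p under 0.05 over 12484 genes), and 0 fell. Over all genes tested, 17.2% were called higher and 17.1% lower. Every KO library lay above every WT library for the same 9 genes, which was so for 28% of all genes tested. The median log2 fold change of the 10 genes was 4.61, and that of all genes tested was -0.09. A log2 fold change of at least 5 together with an adjusted p under 0.05 (limma) was seen in 5 of the 10 genes and in 0.841% of all genes tested. These shares describe a list chosen with earlier results of these data known. In bulk RNA, more contractile cells and more contractile RNA per cell cannot be told apart.

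**Figure D1:**
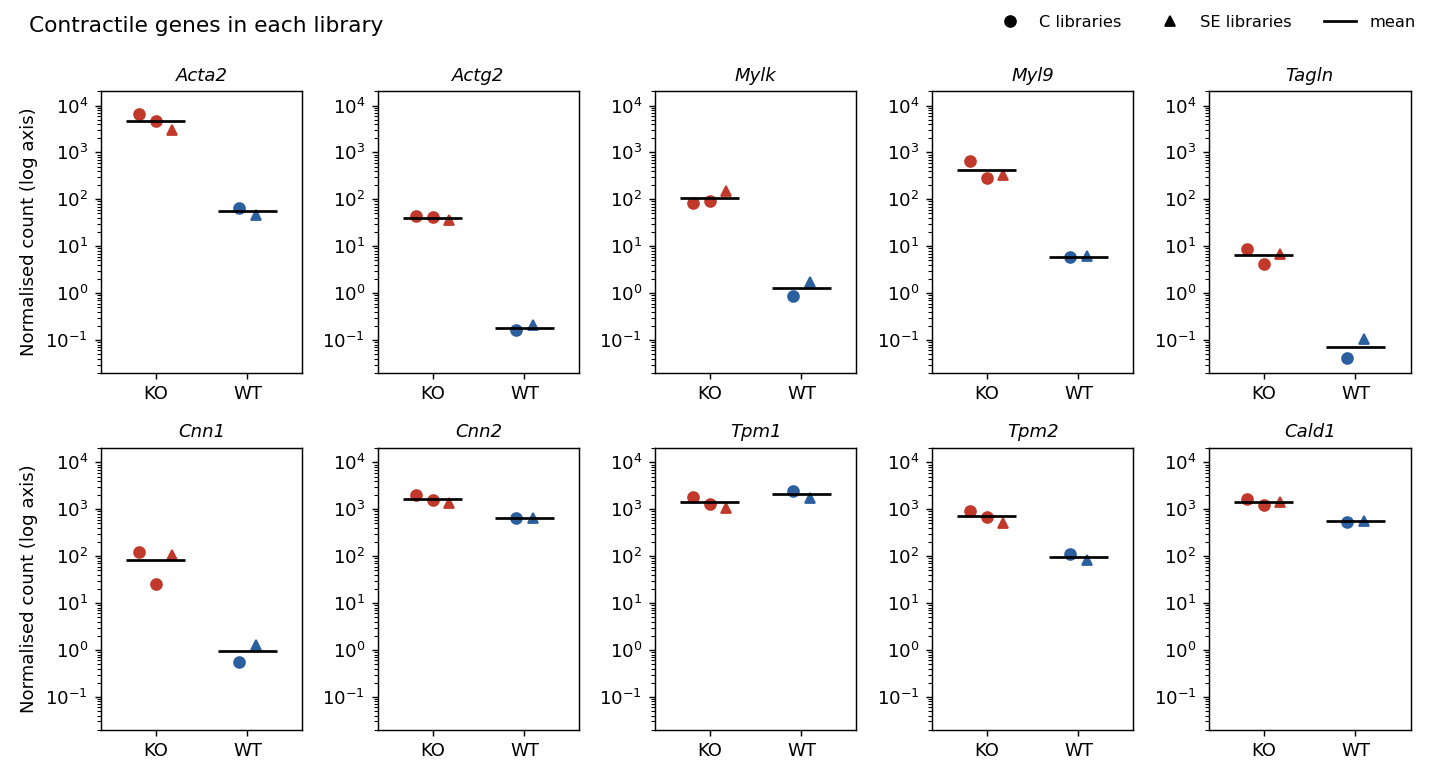
Normalised counts of the 10 contractile genes (log axis) in each library, with 3 KO and 2 WT libraries per gene, circles for C and triangles for SE libraries, and bars at the group means. The groups are apart for 9 genes and overlap for Tpm1.

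The muscle actins showed the highest level and the largest fold. Acta2, smooth muscle alpha-actin (ENSMUSG00000035783, chromosome 19, 34241090 to 34255590, minus strand, GENCODE M21 on GRCm38), had normalised counts of 6456, 4769 and 2971 in KO C1, C2 and SE, against 64.5 and 47.4 in WT C1 and SE. All KO libraries were far above both WT libraries, and KO SE was the lowest of its group. Means were 4732 ± 1743 in the KO and 56.0 ± 12.1 in the WT (SD, n = 3 and 2), an 84.5-fold difference and a log2 fold change of 6.33 (SE 0.38; limma, adjusted p = 0.000121). By level, Acta2 ranked 5, 6 and 11 of all listed genes in KO C1, C2 and SE, against 3705 and 4696 in WT C1 and SE. Actg2, the gamma-actin of enteric smooth muscle (ENSMUSG00000059430, chromosome 6), had 45.1, 41.5 and 35.4 in KO C1, C2 and SE, against 0.162 and 0.207 in WT C1 and SE. The WT values of Actg2 rest on 8 reads, and the KO values on 2552. The ratio of read rates was 228, with an exact 95% interval from 115 to 528 that covers counting error only, and the log2 fold change was 5.90 (SE 0.29; limma, adjusted p = 7.06e-05). Among the KO libraries Actg2 had the smallest relative spread of the 10 genes, with an SD of 12.1% of the mean. Actins are similar in sequence, but none of the 75-base windows of the annotated transcripts of Acta2 or Actg2, the length of a read, was identical to a window of another gene. Windows with mismatches were not compared.

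The regulatory light chain and the kinase that acts on it rose alongside. Myl9, the smooth muscle regulatory light chain (ENSMUSG00000067818, chromosome 2), had 650.2, 279 and 326 in KO C1, C2 and SE, against 5.96 and 6.06 in WT C1 and SE. KO C1 was the highest library, and the WT libraries were nearly equal. The log2 fold change of Myl9 was 5.91 (SE 0.38; limma, adjusted p = 0.000155). Mylk, the myosin light chain kinase (ENSMUSG00000022836, chromosome 16), had 84.0, 91.2 and 150.1 in KO C1, C2 and SE, against 0.851 and 1.71 in WT C1 and SE. Here the SE library was the highest in both groups, the reverse of Acta2. The log2 fold change of Mylk was 5.93 (SE 0.38; limma, adjusted p = 0.000148), and the fold of means was 84.7, or 63.4 without WT C1 and 127 without WT SE. Mylk also overlaps antisense transcripts E130310I04Rik and Gm21691 by 548 and 224 exon bases, and whether counting used the strand is not given in the sources used here.

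Calponin 1 and transgelin, the most specific filament proteins of the group, rose to very different levels and had few WT reads. Cnn1, the smooth muscle calponin (ENSMUSG00000001349, chromosome 9), had 122, 25.4 and 107 in KO C1, C2 and SE, against 0.567 and 1.29 in WT C1 and SE. KO C2 was much lower than the other KO libraries, and an SD of 61.3% of the mean was the widest KO spread of the 10 genes. The log2 fold change was 5.66 (SE 0.70; limma, adjusted p = 0.00169), and the fold of means was 91.0, or 65.4 without WT C1 and 149 without WT SE. Tagln, transgelin or SM22-alpha (ENSMUSG00000032085, chromosome 9), had 8.61, 4.09 and 6.95 in KO C1, C2 and SE, against 0.0405 and 0.104 in WT C1 and SE. These values come from 388 KO reads and 3 WT reads, so the ratio of read rates of 92.3 has an exact 95% counting interval from 31.3 to 449. The fold of Tagln means was 90.9, or 63.2 without WT C1 and 162 without WT SE. The log2 fold change of 3.57 (SE 0.37; limma, adjusted p = 0.000803) is held down by the added 0.5, and it was 6.45 in edgeR's quasi-likelihood test on whole reads (adjusted p = 0.00141), which called 16.3% of all genes higher. Although Tagln is a standard companion of Acta2, its normalised count per kb of exon was lower than that of Acta2 by a ratio of 679, 1057 and 387 in KO C1, C2 and SE, against 1441 and 415 in WT C1 and SE. Tagln shares 108 exon bases with Pcsk7 and 1241 with Gm48529, both on the opposite strand, so some of its few reads could belong to them if strand was not used.

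The broadly expressed filament proteins Cnn2 and Cald1 rose far less. Cnn2, a calponin found in many cell types (ENSMUSG00000004665, chromosome 10), had 2063, 1589 and 1364 in KO C1, C2 and SE, against 639.7 and 644 in WT C1 and SE. Its log2 fold change was 1.36 (SE 0.29; limma, adjusted p = 0.0128). Cald1, caldesmon (ENSMUSG00000029761, chromosome 6), had 1674, 1208 and 1420.1 in KO C1, C2 and SE, against 543 and 568 in WT C1 and SE. Its log2 fold change was 1.35 (SE 0.26; limma, adjusted p = 0.00975). The groups did not overlap for either gene, and both calls were lost without WT C1 or without WT SE, where 1 WT library is assumed to vary like the KO. For Cnn2 the adjusted p was then 0.0781 and 0.0786, and for Cald1 it was 0.0703 and 0.0643 (limma). Caldesmon has a smooth muscle form and a form of other cells, and a count per gene does not separate them among its 18 annotated transcripts.

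The tropomyosins parted. Tpm2, beta-tropomyosin (ENSMUSG00000028464, chromosome 4), had 932, 699 and 504 in KO C1, C2 and SE, against 111 and 82.3 in WT C1 and SE. It rose 7.36-fold, with a log2 fold change of 2.84 (SE 0.32; limma, adjusted p = 0.00113). Tpm1, alpha-tropomyosin (ENSMUSG00000032366, chromosome 9), had 1839, 1311 and 1068 in KO C1, C2 and SE, against 2450 and 1734 in WT C1 and SE. KO C1 was above WT SE, so the groups overlapped, and the log2 fold change of -0.59 (SE 0.35) was not called (limma, adjusted p = 0.240). With the suffix as an added term it was -0.68 (SE 0.19) and called lower (limma, adjusted p = 0.0212), in a fit that called 32.3% of all genes lower and 28.3% higher. With quantile normalization it was -0.79 (limma, adjusted p = 0.0316), where 16.4% of all genes were called lower. Tpm1 has 21 annotated transcripts that include muscle and non-muscle forms, which the deposited values do not separate. Per kb of exon, the ratio of Tpm2 to Tpm1 was 1.13, 1.19 and 1.05 in KO C1, C2 and SE, against 0.101 and 0.106 in WT C1 and SE.

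**Figure D2:**
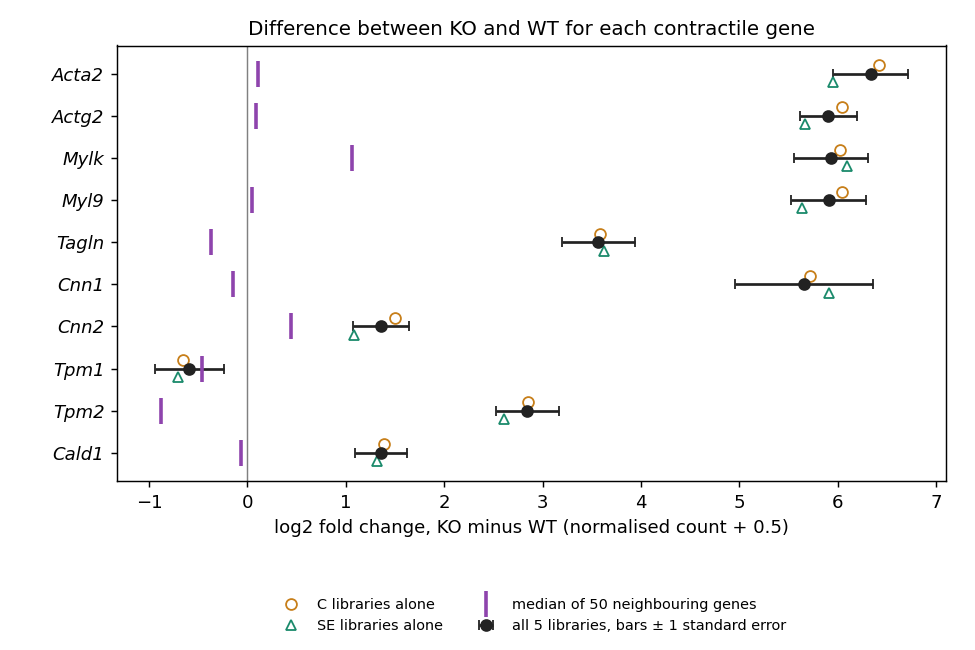
Log2 fold changes, KO minus WT, of the 10 contractile genes (filled circles with bars of 1 standard error), the same within the C and within the SE libraries (open symbols), and the median of the 50 nearest tested genes (vertical ticks). The 9 called genes lie to the right of their neighbours, and Tpm1 lies near its own.

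The differences were of like size within each suffix. Among C libraries the log2 fold changes, 2 KO against 1 WT, were 6.42 for Acta2, 6.05 for Myl9, 5.72 for Cnn1 and -0.66 for Tpm1. Between the SE libraries, 1 of each group, they were 5.95 for Acta2, 5.64 for Myl9, 5.91 for Cnn1 and -0.70 for Tpm1. All 10 genes had the same sign in both. The SE libraries differed from the mean of the C libraries for some of them. Acta2 was lower in SE than in C by log2 differences of -0.90 in the KO and -0.44 in the WT, and Tpm2 by -0.68 in the KO and -0.43 in the WT. Mylk was higher in SE by 0.77 in the KO and 0.71 in the WT, in both cases above every C library of its group. For Cnn1 no such statement holds, since KO SE lay between KO C1 and KO C2. With 1 SE library per group these differences have no replicate check.

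Neighbouring genes were read beside each member. The 50 tested genes nearest to each gene had median log2 fold changes between -0.88, around Tpm2, and 1.07, around Mylk. Tpm1 had -0.59 where its neighbours had a median of -0.46, and Cnn2 had 1.36 where its neighbours had 0.44. For Acta2, Actg2, Myl9, Cnn1 and Cald1 the medians of the neighbours lay between -0.14 and 0.11. The part of position in the members' differences was not tested.

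Set per kb of exon, the order of the levels differed between the groups. In the KO, Acta2 came first with a mean of 2155 normalised counts per kb, followed by Cnn2 with 679.7, Myl9 with 360.2, Tpm2 with 245, Tpm1 with 217, Cald1 with 119, Cnn1 with 31.0, Actg2 with 26.1, Mylk with 9.63 and Tagln with 3.29. In the WT, Tpm1 came first with 323, followed by Cnn2 with 261, Cald1 with 46.1, Tpm2 with 33.2, Acta2 with 25.5, Myl9 with 5.17, Cnn1 with 0.340, Actg2 with 0.119, Mylk with 0.114 and Tagln with 0.0362. Neighbours in this order whose libraries overlapped in the KO were Cnn2 with Myl9, Myl9 with Tpm2, Tpm2 with Tpm1, and Cnn1 with Actg2. In the WT they were Tpm2 with Acta2 and Actg2 with Mylk. Lengths are the union of all annotated exons, which understates genes with long or many transcripts. Together the 10 genes held 1.34%, 0.993% and 0.816% of the summed values in KO C1, C2 and SE, against 0.362% and 0.331% in WT C1 and SE. Acta2 made up 46.5%, 47.6% and 37.4% of that sum in KO C1, C2 and SE, against 1.69% and 1.54% in WT C1 and SE, where Tpm1 was 64.2% and 56.2%.

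The share of non-muscle counterparts called higher was near that of all genes. Of 15 tested genes for actins, tropomyosins, light and heavy chains and cross-linkers of all cells, 2 rose and 1 fell, beside 17.2% higher and 17.1% lower over all genes, with a median log2 fold change of 0.27. Tpm3, a tropomyosin of many tissues, fell, with 176, 142 and 111 in KO C1, C2 and SE, against 617 and 412 in WT C1 and SE (log2 fold change -1.84, SE 0.30; limma, adjusted p = 0.00461). Myl6, the essential light chain, rose by a log2 fold change of 1.24 (SE 0.37; limma, adjusted p = 0.0432), and Actn1, an actin cross-linker, by 1.91 (SE 0.60; limma, adjusted p = 0.0494). These 2 calls near the threshold do not hold in all fits, and without KO C1 or KO C2 or either WT library 0 of the 15 rose, while 6 rose and 2 fell with the suffix as an added term, a fit that called 28.3% of all genes higher and 32.3% lower. Cytoplasmic beta-actin, Actb, chosen after its values were seen, had 9124, 6145 and 4416 in KO C1, C2 and SE, against 5363 and 3275 in WT C1 and SE, and was not called (limma, adjusted p = 0.389). Per kb, the ratio of Acta2 to Actb was 0.863, 0.947 and 0.821 in KO C1, C2 and SE, against 0.0147 and 0.0177 in WT C1 and SE. The ratio of Myl9 to the non-muscle light chain Myl12b, which was not called (limma, adjusted p = 0.0912, or 0.00119 and higher with the suffix as an added term), was 2.30, 1.02 and 2.25 in KO C1, C2 and SE, against 0.0413 and 0.0696 in WT C1 and SE. The ratio of Cnn1 to Cnn2 was 0.0530, 0.0144 and 0.0707 in KO C1, C2 and SE, against 0.000797 and 0.00181 in WT C1 and SE. In all 3 ratios, and in that of Tpm2 to Tpm1, no KO library overlapped a WT library.

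**Figure D3:**
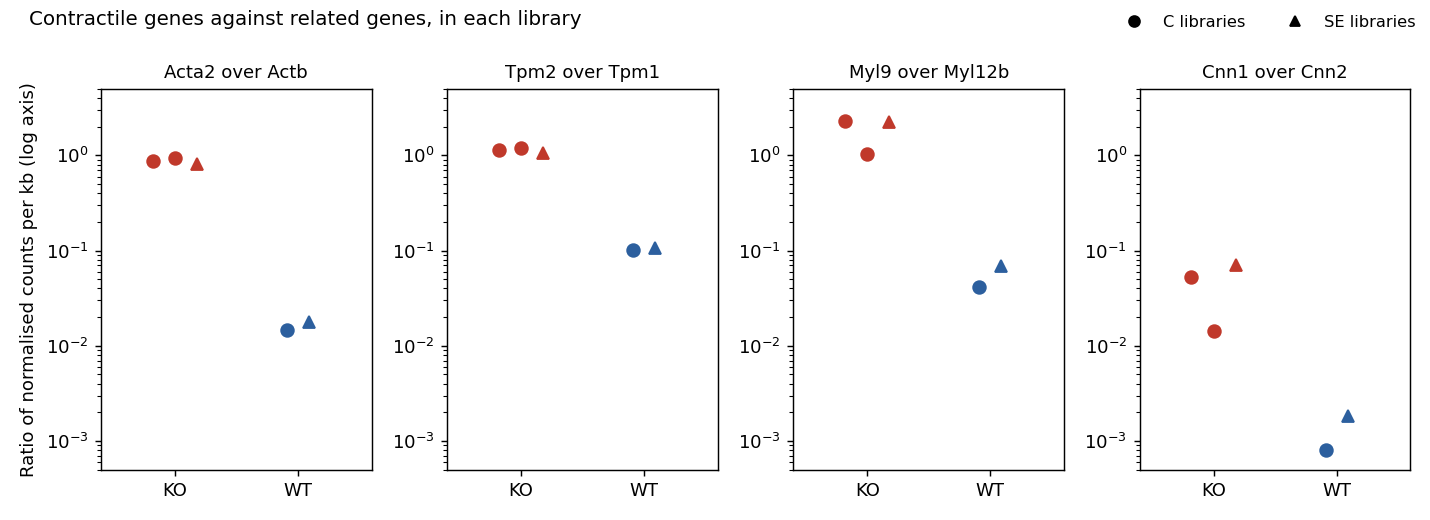
Ratios of normalised counts per kb of exon (log axis) of 4 contractile genes to a related gene in each library, circles for C and triangles for SE libraries. Acta2 over Actb lies between 0.821 and 0.947 in KO and at 0.0147 and 0.0177 in WT libraries, and the other ratios are likewise apart.

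Several other genes of the smooth muscle apparatus rose. Of 12 tested genes from a list of 16, 8 rose and 0 fell, beside 17.2% higher and 17.1% lower over all genes, with a median log2 fold change of 1.99. Synpo2, an actin-bundling protein of muscle, had 30.8, 21.5 and 36.5 in KO C1, C2 and SE, against 0.527 and 0.155 in WT C1 and SE. Lmod1, a leiomodin that nucleates actin in smooth muscle, had 13.7, 9.84 and 28.95 in KO C1, C2 and SE, against 0.122 and 0.0518 in WT C1 and SE, where it rests on 4 WT reads. Their log2 fold changes were 5.17 (SE 0.37) for Synpo2 and 4.80 (SE 0.48) for Lmod1 (limma, adjusted p = 0.000226 and 0.000692). Des, the muscle intermediate filament desmin, rose with a log2 fold change of 4.63 (SE 0.40), and Ldb3, a Z-line protein, with 2.66 (SE 0.28; limma, adjusted p = 0.000393 and 0.000865). Smtn, smoothelin, and Cacna1c, a calcium channel of smooth muscle, both chosen after their values were seen, had log2 fold changes of -0.98 and -1.21 and were not called (limma, adjusted p = 0.0608 and 0.154). Without KO C2, 6 of the 12 rose. Fewer than in the main fit also rose without WT C1 or WT SE, as over all genes in each of these fits. With the suffix as an added term 9 rose and 2 fell, in a fit that called 28.3% of all genes higher and 32.3% lower. The 2 were Smtn and Cacna1c. Without KO SE 8 rose and 2 fell, in a fit that called 2332 of 12296 genes higher and 2632 lower. In DESeq2 9 rose and 1 fell, beside 2600 higher and 2236 lower of 12484 genes. The smooth muscle heavy chain Myh11 was not analysed here.

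For genes that control the phosphorylation of the light chain, the share called higher was also near that of all genes. Of 14 tested genes, among them calmodulins, kinases and phosphatase subunits, 2 rose and 0 fell, beside 17.2% higher and 17.1% lower over all genes, with a median log2 fold change of 0.29. Ppp1r12a, the targeting subunit of myosin phosphatase, rose by a log2 fold change of 1.24 (SE 0.27; limma, adjusted p = 0.0151). Cdc42bpa and Rock2, kinases that act on myosin or its phosphatase, were not called (limma, adjusted p = 0.122 for each). With the suffix as an added term both were called higher, and 6 rose and 2 fell, in a fit that called 28.3% of all genes higher and 32.3% lower. Fewer rose without WT C1 or without WT SE, as over all genes.

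Among transcription regulators of the contractile genes, more fell than rose. Of 18 tested regulators, 2 rose and 7 fell, beside 17.2% higher and 17.1% lower over all genes, with a median log2 fold change of -0.36. Fhl2, a LIM-domain cofactor of serum response factor, had 957, 795 and 689 in KO C1, C2 and SE, against 279 and 215 in WT C1 and SE (log2 fold change 1.72, SE 0.26; limma, adjusted p = 0.00371). Klf4, a repressor of smooth muscle genes, had 11.4, 8.81 and 20.2 in KO C1, C2 and SE, against 73.0 and 66.0 in WT C1 and SE (log2 fold change -2.41, SE 0.38; limma, adjusted p = 0.00431). Mef2c, a factor of muscle differentiation, fell with a log2 fold change of -4.63 (SE 0.39), and Tead2 fell with one of -2.43 (SE 0.38; limma, adjusted p = 0.000372 and 0.0042). Srf itself, chosen after its values were seen, had 50.8, 43.8 and 58.8 in KO C1, C2 and SE, against 42.5 and 53.2 in WT C1 and SE, and the groups overlapped (log2 fold change 0.09, SE 0.25; limma, adjusted p = 0.803). Myocd, myocardin, also chosen afterwards, had 34 reads over the KO and 0 over the WT libraries, at values of 0.611, 0.265 and 1.00 in KO C1, C2 and SE, and it was too low to enter the test. Without the filter on low values it was called higher (limma, adjusted p = 0.0429), next to a WT at 0 reads. Of its relatives, also chosen afterwards, Mrtfb rose (log2 fold change 1.58, SE 0.37; limma, adjusted p = 0.0192). Mrtfa was not called, at 1.15 (SE 0.79; limma, adjusted p = 0.305), and was called higher with the suffix as an added term (limma, adjusted p = 0.00499). Without WT SE fewer regulators rose and fewer fell, as over all genes. With the suffix as an added term 4 rose and 8 fell, in a fit that called 28.3% of all genes higher and 32.3% lower.

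Among TGF-beta genes, the ligand Tgfb2 and the responsive gene Ccn2 rose. Of 16 tested genes, 6 rose and 0 fell, beside 17.2% higher and 17.1% lower over all genes, with a median log2 fold change of 0.93. Tgfb2, a ligand, had 42.2, 48.1 and 46.7 in KO C1, C2 and SE, against 5.31 and 4.56 in WT C1 and SE (log2 fold change 3.09, SE 0.26; limma, adjusted p = 0.000367). Ccn2, a matricellular protein that responds to TGF-beta, had 1581, 719 and 1470.4 in KO C1, C2 and SE, against 137 and 182 in WT C1 and SE (log2 fold change 2.90, SE 0.40; limma, adjusted p = 0.00241). Ltbp2, a latent TGF-beta binding protein, rose by a log2 fold change of 3.89 (SE 0.79), and Tgfb1i1, a focal adhesion cofactor, by one of 1.14 (SE 0.20; limma, adjusted p = 0.0112 and 0.0071). Fewer of the 16 rose without WT C1 or without WT SE, as over all genes. With the suffix as an added term 9 rose and 4 fell, in a fit that called 28.3% of all genes higher and 32.3% lower. The 4, named after their values were seen, were the receptors Tgfbr1 and Tgfbr2, with Ltbp1 and Smad2. Their log2 fold changes in the main fit, without that term, were -1.11, -1.10, -1.73 and -0.33 (SE 0.45, 0.52, 0.75 and 0.22), and none was called there. Without KO SE and without that term, 7 of the 16 rose and 4 fell, in a fit that called 2332 of 12296 genes higher and 2632 lower.

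**Figure D4:**
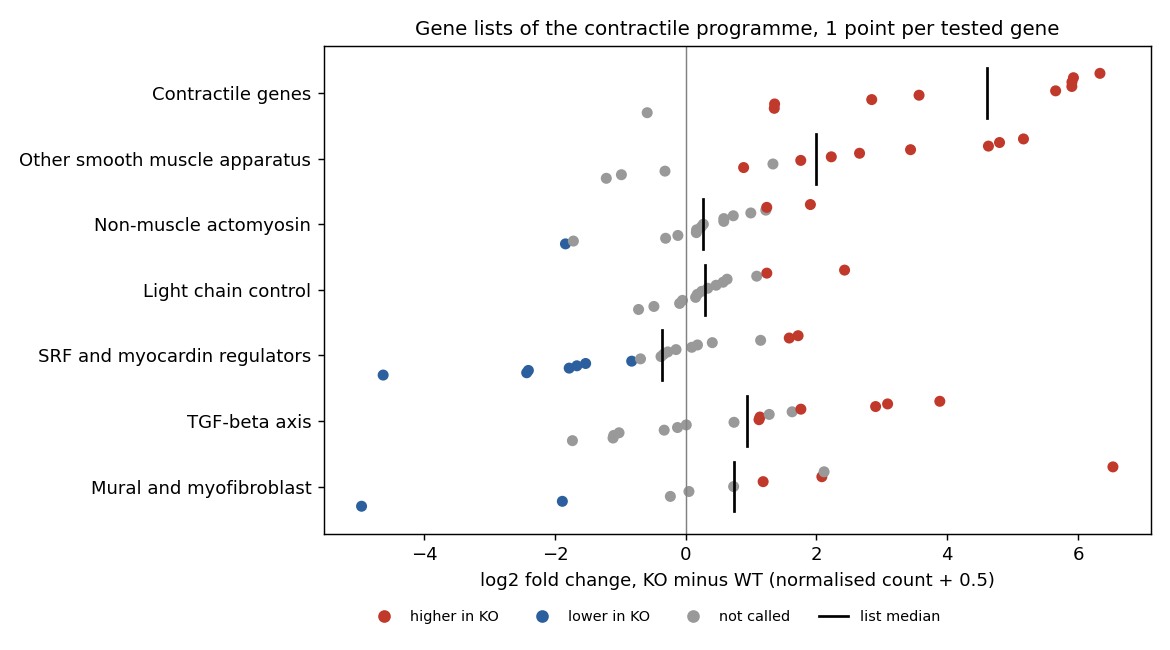
Log2 fold changes, KO minus WT, of the tested genes of 7 lists, 1 point per gene, coloured by call, with a bar at the median of each list. The contractile genes have a median of 4.61, the other smooth muscle apparatus 1.99 and the non-muscle genes 0.27, and the regulators are the only list of the 7 with a median below 0.

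Markers of other contractile or admixed cells were read beside these results. Of 9 tested mural and myofibroblast markers from a list of 13, 3 rose and 2 fell, beside 17.2% higher and 17.1% lower over all genes, and their summed values were 475 to 1228 in the KO and 224 and 380.4 in WT C1 and SE. Fewer rose without WT C1, as over all genes, and with the suffix as an added term 5 rose, beside 28.3% of all genes. Postn, a matrix protein of myofibroblasts and bone surfaces, had 45.1, 23.3 and 90.9 in KO C1, C2 and SE and 0 reads in the WT. Rgs5, a pericyte marker, had 1.65, 1.36 and 2.65 in KO C1, C2 and SE, against 0 and 0.104 in WT C1 and SE, whereas the pericyte proteoglycan Cspg4 fell, with 0.893, 0.454 and 1.79 in KO C1, C2 and SE, against 28.0 and 70.6 in WT C1 and SE. Cdh2, N-cadherin, fell by a log2 fold change of -1.89 (SE 0.30; limma, adjusted p = 0.00459). Of 12 skeletal muscle markers 2 were in the table, and their sums were 1.65 to 4.19 in the KO and 1.58 and 1.04 in WT C1 and SE. Acta1, skeletal alpha-actin, rose, with 70 KO and 4 WT reads (log2 fold change 1.35, SE 0.34; limma, adjusted p = 0.025), and Mylpf was not called. Of 10 cardiac markers 3 were in the table, with sums of 5.22 to 5.52 in the KO and 7.70 and 4.87 in WT C1 and SE. Myl4 and Tnni3 rose, at most to 4.30 and 1.22, and Tnnt2 fell, with 13 KO and 193 WT reads. Of 8 endothelial markers 2 were in the table, with sums of 0.376 to 3.80 in the KO and 1.70 and 1.40 in WT C1 and SE, and Erg had 0 KO reads against 68 WT reads, while Vwf had 91 KO reads against 1 WT read and was not called except with the suffix as an added term and in some other alternatives. Of 8 blood cell markers 2 were in the table, with sums of 6.52 to 19.1 in the KO and 5.03 and 3.11 in WT C1 and SE, and Csf1r rose with a log2 fold change of 3.12 (SE 0.47; limma, adjusted p = 0.00357), while Cd68 was not called. The sums of these muscle, endothelial and blood markers were at most 19.1, and rest on the 2 or 3 genes of each list in the table. That of the 10 contractile genes was 7953 to 13874 in the KO, of which Acta2 made up 37.4% to 47.6%. Such sums do not measure the shares of cells. The stromal markers summed to 5443 to 6207 in the KO and to 6194 and 5698 in WT C1 and SE. Most of these sums came from Vim and Itgb1, with means of 3617 and 1193 in the KO and 3404 and 1191 in the WT. Among the others Nt5e fell, with 0.752, 0.946 and 0.358 in KO C1, C2 and SE, against 77.4 and 121 in WT C1 and SE. Cd44 and Ly6a also fell, with means of 35.9 and 36.2 in the KO, against 355 and 348 in the WT. Pdgfrb, a receptor of stromal and mural cells, had 239.8, 239.5 and 860.05 in KO C1, C2 and SE, against 49.0 and 145 in WT C1 and SE, and was not called (limma, adjusted p = 0.055), but with the suffix as an added term it was called higher, with a log2 fold change of 2.40 (SE 0.12; limma, adjusted p = 2.26e-05). Calls in the skeletal, cardiac and endothelial lists rest on few reads, and those of Myl4 and Tnni3 were lost with quantile normalization and in edgeR. The part of cell composition in the contractile difference was not tested.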

How the data were processed

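Stranded mRNA libraries gave 75-bp single-end reads, per the labels. The submitters' processing notes list STAR 2.5, featureCounts 1.5.2 and edgeR; build, annotation and strand use in counting are not given in the sources used here. The deposited values are a signal: reads per gene after library scaling, at the level of CPM, with column totals from 931660 to 1052926. All values (100%) came back as whole reads, with a tolerance of 0.02. The lowest maximum of a listed gene was 0.984. Columns gave each library's group and no replicate number.

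limma 3.58.1 (eBayes with a trend) was fitted to log2 of the value plus 0.5, with group as the only term, for the 12484 genes that reached 1 in 2 or more libraries. P-values were adjusted by Benjamini-Hochberg, with a threshold of 0.05. Fits were tested on simulated counts with a set spread between libraries, so this check gives no error rates for these data. Alternatives were other normalizations, pseudocounts, filters and eBayes settings, leaving out libraries, the column suffix as an added term, and edgeR 4.0.16 and DESeq2 1.42.0 on recovered reads. Folds are ratios of group means. Intervals are exact (95%). Exon lengths and coordinates were looked up by identifier in GENCODE M21 (GRCm38), and promoters in RefSeq. R 4.3.3 and Python 3.11.15 were used. The members and the 11 other gene lists were chosen with earlier results of these data known. Genes named were the 10 members, Tnfaip6, up to 4 genes of each list with the smallest p, and the 5 genes most like Acta2; others are marked as chosen after their values were seen. Some genes that this rule names are not reported here.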

Additional observations from a re-analysis of the deposited data

How the results depend on the processing

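Of the 18 alternatives, 16 called the same number of 9 contractile genes higher, and 7 were called without WT C1 and without WT SE, where Cnn2 and Cald1 were lost. The other 7 genes were called in all 18. Log2 fold changes of Acta2 ran from 6.08 without KO C1 to 6.63 without KO SE. Those of Tagln ran from 2.77 with a pseudocount of 1 to 6.62 in DESeq2. A contractile gene, Tpm1, was called lower with quantile normalization (1 gene) and with the column suffix as an added term (1 gene), and the cause was not tested. Over all genes, 2150 were higher and 2129 lower. Leaving out single libraries gave 1049 to 2332 higher and 594 to 2632 lower genes. Higher genes were fewest without WT SE (1134 without WT C1), and lower genes without WT C1 (627 without WT SE, 1280 without KO C2). Both counts were largest without KO SE, at 2332 and 2632, and above the main fit, so fewer libraries did not always give fewer calls. The cause of these differences in counts was not tested. The suffix as an added term gave 3530 higher and 4038 lower genes. The median log2 fold change of the 10 contractile genes ran from 3.98 with a pseudocount of 1 to 6.33 in DESeq2, and no alternative moved the median of all genes by more than 0.0812. No paired analysis was possible because the columns carry no replicate numbers of the sample titles, and the suffix that they share stood in as the block above. Depth limits Tagln and Actg2 in the WT, with 3 and 8 reads.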

Other observations

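Of the genes outside the lists with a mean of at least 5, those whose centred log2 profile over the 5 libraries came closest to that of Acta2 were Hebp2, Rps4l, Fabp4, Cd24a and Cdkn2b, with root mean square differences of 0.17, 0.25, 0.25, 0.27 and 0.28 on the log2 scale. The nearest contractile genes were Actg2 at 0.37 and Myl9 at 0.40, and Tpm1 was at 3.39. With 5 libraries, this likeness mostly describes the size of the difference between the groups, and nothing follows from it about shared function. Fabp4, a fatty acid carrier of fat cells, had 408, 489 and 278 in KO C1, C2 and SE, against 5.92 and 3.52 in WT C1 and SE. Cd24a, a surface glycoprotein, had 231, 151 and 126 in KO C1, C2 and SE, against 2.88 and 1.04 in WT C1 and SE. Cdkn2b, a cyclin-dependent kinase inhibitor, had 79.4, 78.7 and 56.5 in KO C1, C2 and SE, against 0.446 and 0.518 in WT C1 and SE. Hebp2, a heme-binding protein, had 102, 77.1 and 64.2 in KO C1, C2 and SE, against 0.608 and 0.259 in WT C1 and SE. Rps4l, a ribosomal protein gene copy whose reads may be shared with its relatives, had 131, 87.8 and 77.8 in KO C1, C2 and SE, against 1.09 and 0.932 in WT C1 and SE.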
